A study of Mus musculus with 17 samples.

Results

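Cornified envelope and epidermal barrier genes encode the proteins that a keratinocyte crosslinks beneath its membrane as it dies, with the enzymes, proteases and adhesion proteins of the finished barrier. A list of 35 such genes, without keratins and desmosome genes, was followed through 17 mammary tumours. Of these, 28 had a probe set of their own, among 12393 genes measured. Kprp, Tgm5, Sbsn, Cnfn, Klk5 and Lce1c had none, and Sprr2a1 had only probe sets that are assigned to several genes. One probe set was used per gene, the one with the highest mean over the 17 arrays.

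The tumours grew in FVB mice and carry Myc T58A, a mutated version of this transcription factor, driven by the MMTV promoter, whose activity is centred on mammary epithelium. They are further described as low expressing. All groups carry this transgene, and no mammary tissue without a tumour is among the samples. By the histology label, 6 tumours were EMT (epithelial to mesenchymal transition), 1 was Papillary, 1 was Microacinar and 9 were Squamous. The number after a label, such as EMT 2, is only a name. The labels give neither age nor treatment, and do not say whether the tumours came from separate animals. Squamous 7 and Squamous 8 share a number in their titles, and so do the Microacinar tumour and Squamous 5.

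The cornified envelope replaces the plasma membrane of a keratinocyte at the end of its differentiation. Envoplakin, periplakin and involucrin form the first scaffold, transglutaminases then fix loricrin, small proline-rich proteins and other precursors to it, and lipoxygenases prepare the ceramides that are bound to its outer face. Mammary epithelium does not normally cornify, and squamous metaplasia is the name for mammary or other glandular epithelium that takes on this programme.

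All 13 measured structural precursors (Ivl, Lor, Flg, Rptn, Lce3a, Crct1 and 7 small proline-rich genes) lie on chromosome 3, in the cluster known as the epidermal differentiation complex. The other 15 members lie on other chromosomes. RefSeq promoter windows, 250 bases before to 50 after a start on GRCm38.p6, were matched for 23 members and gave 25 windows. An AP-1 sequence (TGANTCA, the site of Fos and Jun proteins) was present in 12 of the 25, against 7.81% of all 32851 promoters in the table. It was found in 10 of the 12 windows of chromosome 3 members and in 2 of the 13 others. These windows are not independent, because several belong to related genes. Sprr2d, Sprr2h, Sprr2i and Sprr2k each hold a match beginning between -198 and -193 from the start. A TATA sequence (TATAAA) was present in 13 of 25 windows, against 13.6% of all promoters. GGGTGTG, a sequence bound by Klf factors, was present in 4 of 25, against 7.95%, and AACCGGTT, a grainyhead sequence, in 0 of 25, against 0.146%. All 4 were searched on both strands, none contains another, and a match describes the sequence only.

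The promoters of 4 chromosome 3 members are shown because these genes separate 2 tumours described below: Lor and Rptn were highest in Squamous 9, Ivl and Sprr2d in EMT 2. The windows are Lor chr3:92083093-92083392 (minus strand), Rptn chr3:93393449-93393748 (plus strand), Ivl chr3:92573686-92573985 (minus strand) and Sprr2d chr3:92338890-92339189 (plus strand). Each is written 5′ to 3′ on the gene's strand, with the AP-1 match in capitals.
Lor: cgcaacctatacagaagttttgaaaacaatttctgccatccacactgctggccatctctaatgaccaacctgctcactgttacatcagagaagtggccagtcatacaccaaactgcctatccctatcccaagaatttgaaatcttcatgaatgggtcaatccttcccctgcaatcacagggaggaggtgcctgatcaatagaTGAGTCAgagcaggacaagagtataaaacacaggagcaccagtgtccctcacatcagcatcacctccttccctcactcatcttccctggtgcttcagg
Rptn: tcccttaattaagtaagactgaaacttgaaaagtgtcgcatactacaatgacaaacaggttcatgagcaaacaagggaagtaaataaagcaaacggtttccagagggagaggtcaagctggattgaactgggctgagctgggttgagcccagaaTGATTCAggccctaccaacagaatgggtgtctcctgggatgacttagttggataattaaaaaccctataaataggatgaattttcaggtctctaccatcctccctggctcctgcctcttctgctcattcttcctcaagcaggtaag
Ivl: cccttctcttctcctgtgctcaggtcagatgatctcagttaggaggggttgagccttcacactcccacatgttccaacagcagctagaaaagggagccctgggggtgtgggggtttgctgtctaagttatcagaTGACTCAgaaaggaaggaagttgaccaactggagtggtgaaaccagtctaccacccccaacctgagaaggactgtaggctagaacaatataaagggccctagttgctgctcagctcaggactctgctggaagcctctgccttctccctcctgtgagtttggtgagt
Sprr2d: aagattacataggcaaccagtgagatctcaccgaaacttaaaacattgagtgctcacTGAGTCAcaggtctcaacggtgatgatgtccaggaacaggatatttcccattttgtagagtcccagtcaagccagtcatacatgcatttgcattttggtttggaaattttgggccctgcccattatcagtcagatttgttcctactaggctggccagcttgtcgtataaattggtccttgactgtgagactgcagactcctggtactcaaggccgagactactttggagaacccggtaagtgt
The first base of the match lay at -48 from the start in Lor, -96 in Rptn, -116 in Ivl and -193 in Sprr2d. All 4 windows hold a match, as did 10 of the 12 windows of chromosome 3 members. Sprr3, also highest in EMT 2 and not shown, had no match in its window. Whether the sequence bears on the tumour in which a gene peaked was not tested.

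All values are deposited log2 values per probe set, and levels are compared between tumours and never between genes. Array medians lay within 0.17 of one another. EMT 5, EMT 6 and Squamous 9 have titles with TM after a number, the other 14 numbered titles. The SD over probe sets was 2.46 to 2.51 on the TM arrays, against 2.25 to 2.29 on the numbered arrays, so results are also given within a title format. The 3′ minus 5′ difference of the actin control, which is higher in less intact RNA, was 0.44 to 0.82 in EMT tumours and 0.62 to 0.96 in Squamous tumours. The EMT label was not matched by a lower Cdh1 (E-cadherin, the adhesion protein of epithelia) in every tumour. It stood at 11.91 (EMT 1), 12.09 (EMT 2), 11.84 (EMT 3), 7.19 (EMT 4), 8.10 (EMT 5) and 7.04 (EMT 6), against 11.13 to 11.97 in Squamous tumours. Of the EMT tumours, 3 therefore held this epithelial marker at the level of Squamous tumours or just above, and each tumour's own values are given below. Krt10, a keratin of cornifying layers, ran from 6.24 to 10.69 in EMT tumours and from 6.61 in Squamous 8 to 14.46 in Squamous 9, so the Squamous label covered a wide range of it too.

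In EMT tumours the barrier genes lay lower on average than in Squamous tumours, but unevenly, and no gene passed the test. The median log2 fold change of the 28 members, EMT over Squamous, was -1.47, against 0.0064 over all genes, and 25 members lay lower and 3 higher. Limma with title format as a term called 0 of 12393 genes (0%) at an adjusted p under 0.05. At an unadjusted p under 0.05, 8 members lay lower in EMT tumours, against 6.27% of all genes lower and 8.08% higher. The smallest adjusted p was 0.0982 over all genes and 0.252 among the members, for Rptn and Calml3. At a log2 fold change of -1 or below there were 18 members, against 3.27% of all genes. Among the numbered arrays alone (4 EMT and 8 Squamous tumours) the median of the members was -0.51. Leaving out Squamous 9, the only Squamous tumour on a TM array, gave the same value and is no second result. The title format term then takes up the EMT tumours on TM arrays, and only numbered arrays set the fold change.

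The members varied more between tumours of one label than most genes did. Their median SD was 2.17 in EMT tumours and 1.36 in Squamous tumours, against 0.37 and 0.25 over all genes. The median range over the 17 tumours was 6.76 for members and 1.18 for all genes. By tumour, the median difference of the members from the Squamous mean was -0.13 for EMT 1, 1.16 for EMT 2, -0.43 for EMT 3, -3.10 for EMT 4, -2.94 for EMT 5 and -3.89 for EMT 6. The EMT label thus covered 3 tumours near or above the Squamous mean and 3 far below it.

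**Figure D1:**
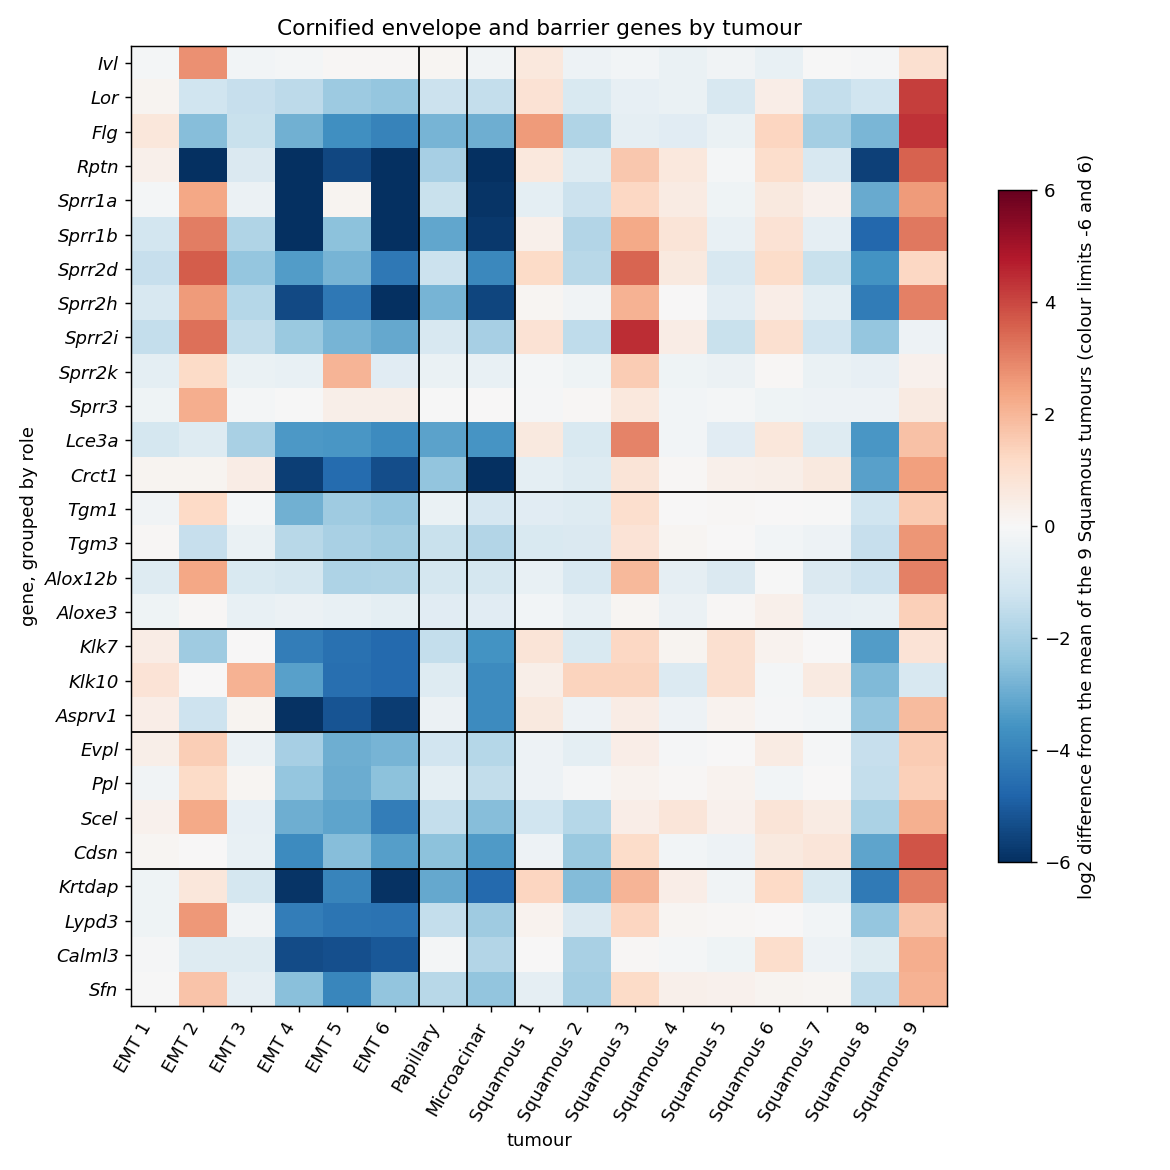
Difference of each of the 28 genes (rows, grouped by role) from its mean over the 9 Squamous tumours, on the log2 scale, in each tumour (columns). EMT 4, EMT 5, EMT 6, the Microacinar tumour and Squamous 8 are mostly blue (lower), with medians of -3.10, -2.94, -3.89, -2.47 and -2.32, and Squamous 9 is mostly red, with a median of 2.00.

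Counted against the Squamous range, 20 members in EMT 4, 18 in EMT 5 and 26 in EMT 6 lay below the lowest Squamous tumour, where 17.6%, 20.1% and 16.9% of all genes did. The counts were 1 for EMT 1, 2 for EMT 2 and 0 for EMT 3, against 8.42%, 19.2% and 6.44% of all genes. The counts of EMT 5 and EMT 6 compare across title formats, because Squamous 9 was the lowest Squamous tumour for 0 members. Low signals can differ by format: a Rptn probe set of small range read 3.65 on all 3 TM arrays and 4.17 to 4.67 on numbered arrays. Its part in these counts was not tested. For 16 members at least 3 of the 6 EMT tumours were lower than any Squamous tumour, against 11% of all genes. That count was 1 without EMT 4, 2 without EMT 5 and 1 without EMT 6. In bulk tumour RNA, fewer keratinising cells and less RNA per such cell cannot be told apart.

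Rptn (repetin, a filaggrin relative and envelope precursor) had the lowest log2 fold change of all genes measured, -4.14 (SE 1.46, adjusted p = 0.252), and -2.76 among numbered arrays. Its lowest, median and highest values were 3.10, 4.06 and 10.16 in EMT tumours, against 4.21, 10.46 and 13.37 in Squamous tumours. EMT 1 and EMT 3 lay at Squamous levels, the other EMT tumours lay near Squamous 8 or lower, and the groups overlapped. Rptn has further probe sets on the array, 2 of which ranged over only 0.59 and 1.01 in the 17 tumours, where the one used ranged over 10.27. With the mean of its probe sets the log2 fold change was -1.42, so its size and its place among all genes rest on the probe set used.

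Flg (filaggrin, which packs keratin filaments and is later broken down to moisturising amino acids) had values of 3.01, 4.28 and 7.68 (lowest, median, highest) in EMT tumours, against 4.27, 6.48 and 11.36 in Squamous tumours. For Lor (loricrin, the main protein of the mature envelope) they were 5.25, 6.07 and 7.75 in EMT tumours, against 6.11, 7.06 and 11.71 in Squamous tumours. Both genes were highest in Squamous 9, EMT 1 was the highest EMT tumour, and the groups overlapped. Their log2 fold changes were -2.43 (SE 1.12, adjusted p = 0.347) and -1.66 (SE 0.75, adjusted p = 0.335). Among numbered arrays, and so without Squamous 9, EMT 5 and EMT 6, they were -0.98 and -0.48. EMT 5 and EMT 6 had the lowest values of both genes. A second Lor probe set ranged over 8.31, and the remaining one over 1.65, with 4.88 in Squamous 9.

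Among the small proline-rich proteins, which bridge other envelope proteins, Sprr1a had values of 4.63, 11.12 and 13.67 in EMT tumours (lowest, median, highest), against 8.35, 11.63 and 13.94 in Squamous tumours. EMT 4 at 5.21 and EMT 6 lay far below the rest, while EMT 5 at 11.54 lay among the Squamous tumours. Sprr1b was 3.27 in EMT 6 and 3.77 in EMT 4, both below the 5.24 to 13.12 found in Squamous tumours. Sprr2d had values of 5.12, 6.85 and 13.04 in EMT tumours, against 5.80, 9.98 and 12.89 in Squamous tumours. It too overlapped widely between the groups.

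The log2 fold changes of these 3 genes were -1.78 (SE 1.40), -2.43 (SE 1.53) and -1.51 (SE 1.26), with adjusted p-values of 0.574, 0.482 and 0.602. Among numbered arrays they were -0.77, -1.10 and -0.69. Sprr2h and Sprr2i had log2 fold changes of -2.47 and -0.93, or -1.01 and -0.51 among numbered arrays. Sprr2k and Sprr3 had 0.061 and 0.38, within 1 SE of 0 for Sprr2k. The Sprr2 genes are close relatives, and a probe set for one can bind transcripts of another. That holds first for Sprr2h, whose probe set is marked by the maker as shared between transcripts.

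Ivl (involucrin, an early scaffold protein) had values of 5.53, 5.66 and 8.41 in EMT tumours (lowest, median, highest), against 5.25, 5.52 and 6.63 in Squamous tumours. EMT 2 alone stood above the Squamous range, in which Squamous 9 (6.63) and Squamous 1 (6.34) were the highest. EMT over Squamous gave 0.38 on the log2 scale (SE 0.43, adjusted p = 0.713), or 0.70 among numbered arrays and -0.22 if EMT 2 was left out. Lce3a, a late cornified envelope gene, and Crct1, a further gene of the complex, had log2 fold changes of -2.36 (SE 0.89) and -2.21 (SE 1.16), and -1.59 and -0.90 among numbered arrays. Their EMT values ran from 4.33 to 7.35 and from 5.27 to 11.37, against 4.62 to 11.10 and 7.68 to 13.39 in Squamous tumours.

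**Figure D2:**
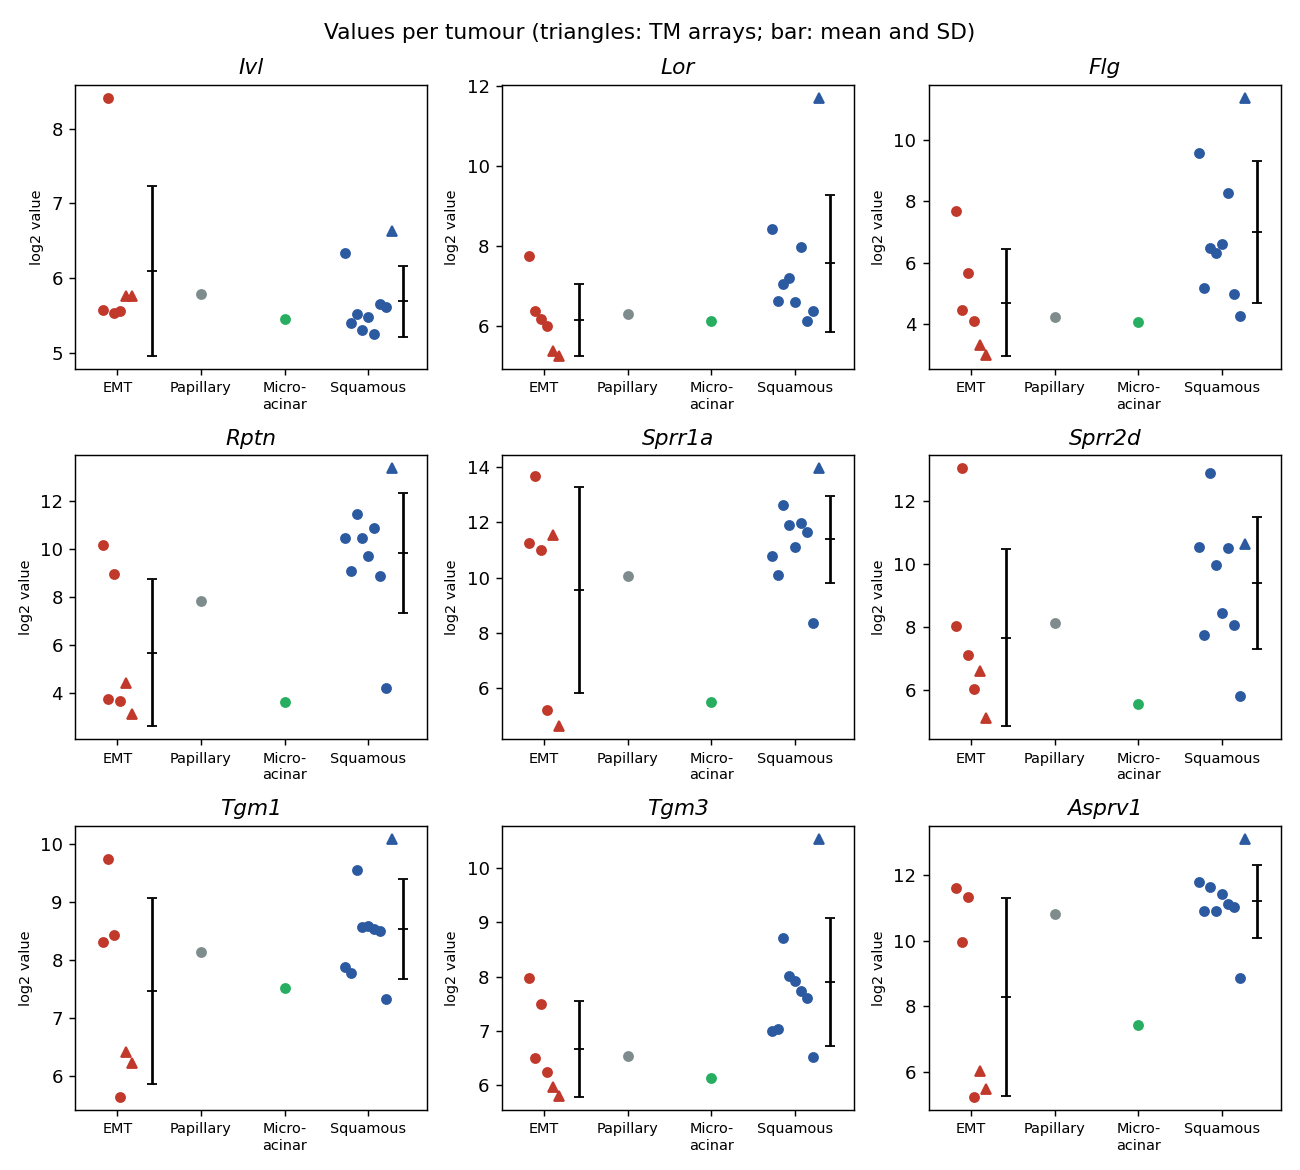
Deposited log2 values of 9 members, 1 point per tumour, by histology (EMT, Papillary, Microacinar, Squamous). Triangles are the arrays with TM titles and the black bars give mean and SD of the 6 EMT and of the 9 Squamous tumours. EMT and Squamous points overlap in all 9 panels, and EMT 2 at 8.41 is the highest point for Ivl while Squamous 9 at 11.71 is the highest for Lor.

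Of the crosslinkers, Tgm1 (the membrane-bound transglutaminase of keratinocytes) had values of 5.65, 7.37 and 9.76 in EMT tumours (lowest, median, highest), against 7.34, 8.55 and 10.10 in Squamous tumours. Tgm3, a transglutaminase that works after proteolytic cleavage in epidermis and hair follicle, had 5.81, 6.37 and 7.98 in EMT tumours, against 6.52, 7.74 and 10.54 in Squamous tumours. For Tgm3, 4 of the 6 EMT tumours were lower than any Squamous tumour, and for Tgm1 3 of 6. The log2 fold changes were -0.998 (SE 0.64, adjusted p = 0.492) for Tgm1 and -1.34 (SE 0.57, adjusted p = 0.315) for Tgm3. The lipoxygenases Alox12b and Aloxe3, which act in turn on ceramides of the barrier, differed less, at -0.76 (SE 0.79) and -0.44 (SE 0.24). Within the numbered arrays Tgm1 stood at -0.30, Tgm3 at -0.51, Aloxe3 at -0.073 and Alox12b at 0.26.

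Among the proteases, Asprv1, which cleaves the filaggrin precursor, had values of 5.24, 7.99 and 11.60 in EMT tumours (lowest, median, highest), against 8.87, 11.12 and 13.10 in Squamous tumours. EMT 4, EMT 5 and EMT 6 lay at 6.02 or below, more than 2 below every Squamous tumour. The fitted difference, EMT over Squamous, was -2.60 (log2, SE 1.06, adjusted p = 0.301), and -1.42 among numbered arrays. Klk7, a kallikrein that cuts the junctions between corneocytes during shedding, had 6.05, 7.54 and 11.15 in EMT tumours, against 7.35, 10.92 and 11.96 in Squamous tumours. EMT over Squamous was -2.15 (log2, SE 0.91, adjusted p = 0.314), and -1.35 among numbered arrays. Klk10, of the same family, had a log2 fold change of -0.90 (SE 0.87), or -0.21 among numbered arrays. It was highest of all 17 tumours in EMT 3, at 11.84.

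The scaffold and junction genes Evpl (envoplakin), Ppl (periplakin), Scel (sciellin, an envelope precursor) and Cdsn (corneodesmosin, which holds corneocytes together) had log2 fold changes of -0.82, -0.94, -1.12 and -1.78. None of the 4 reached an unadjusted p under 0.05, and within the numbered arrays they stood at 0.059, -0.13, 0.041 and -0.55. Evpl ranged from 6.22 in EMT 5 to 10.61 in EMT 2, against 7.76 to 10.64 in Squamous tumours. For Evpl, Ppl and Scel 3 of the 6 EMT tumours lay below every Squamous tumour, and for Cdsn 2 did.

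Calml3, a calmodulin-like protein of epithelia known from human cells, had values of 5.29, 7.73 and 10.58 in EMT tumours (lowest, median, highest), against 8.74, 10.53 and 12.85 in Squamous tumours. The fitted difference was -2.66 (log2, SE 0.95, adjusted p = 0.252) and -1.48 among numbered arrays. Krtdap, a small secreted protein of differentiating keratinocytes, had 4.12, 7.53 and 10.75 in EMT tumours, against 5.81, 10.44 and 13.14 in Squamous tumours. EMT over Squamous was -2.60 (log2, SE 1.36, adjusted p = 0.398), and -1.24 among numbered arrays. Lypd3, a surface protein of suprabasal keratinocytes, and Sfn, the 14-3-3 sigma adaptor of the keratinocyte cell cycle checkpoint, had log2 fold changes of -1.44 (SE 1.03) and -1.11 (SE 0.84), or -0.28 and -0.078 among numbered arrays. EMT tumours overlapped with Squamous tumours for all 4 genes.

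**Figure D3:**
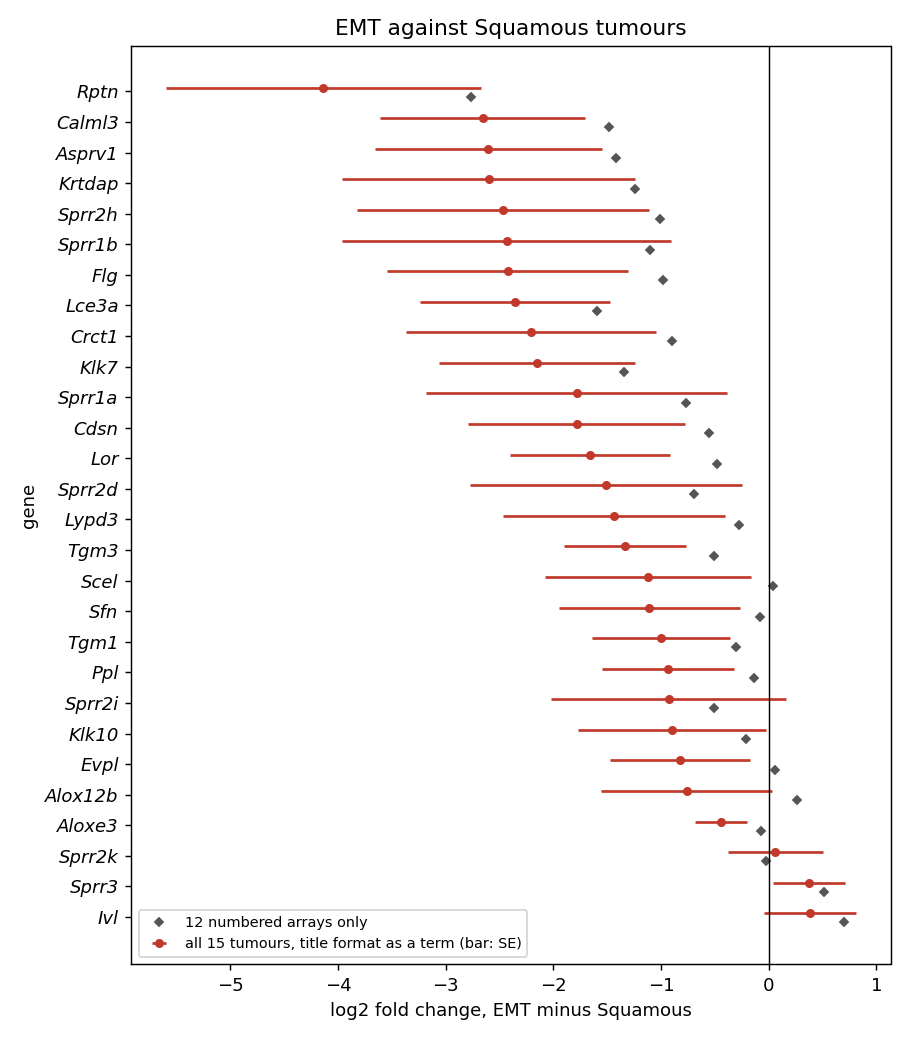
Log2 fold change, EMT minus Squamous, of the 28 genes (horizontal axis), from all 15 tumours with title format as a term (red, bar: SE) and from the 12 numbered arrays alone (grey diamonds). The fitted values run from -4.14 for Rptn to 0.38 for Ivl, and the numbered arrays gave values nearer 0 for most genes, with a median of -0.51.

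Within the TM arrays, EMT 5 and EMT 6 can be set against Squamous 9, without a test. The median difference of the members was -5.27 for EMT 5 and -5.54 for EMT 6, where all genes had a median of 0.00. Both tumours lay at least 1 below Squamous 9 for 25 of the 28 members, against 6.05% of all genes. The values over all genes are partly fixed, because 2989 probe sets are exactly equal on the 3 TM arrays. A gene kept by such a probe set differs by 0 here, and no member is among them. Ivl and Sprr3, however, were equal on EMT 5 and EMT 6, at 5.76 and 5.95. Rptn and Sprr2i shared one value, 4.39, on EMT 5. Whether processing fixed low values of members on TM arrays was not tested. Squamous 9 was itself the tumour with the most members at their highest, with a median of 2.00 above the Squamous mean.

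Among the Squamous tumours, Squamous 9 and Squamous 8 marked the upper and lower ends. Squamous 9 was the highest of all 17 tumours for 18 members, against 7.51% of all genes, and the highest Squamous tumour for 21, against 29%. Squamous 8 was the lowest of the 9 Squamous tumours for 22 members, against 13.3% of all genes. The medians from the Squamous mean were 2.00 in Squamous 9, -2.32 in Squamous 8, 1.10 in Squamous 3 and -0.88 in Squamous 2, and between -0.29 and 0.37 in the other 5.

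Lor, Flg and Rptn were highest in Squamous 9. Lor was 11.71 there, where the next tumour had 8.42, Flg 11.36 next to 9.56, and Rptn 13.37 next to 11.48. The keratins of the upper layers followed the same tumour, with Krt1 at 14.43 and Krt10 at 14.46, their highest values of all 17. Sprr2i was 6.86 there, near its Squamous mean of 7.17, and peaked at 11.59 in Squamous 3. Squamous 3 was the highest of 17 for 3 members, Sprr2i, Lce3a (11.10) and Klk7 (11.96), against 1.74% of all genes.

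Squamous 8, which shares its title number with Squamous 7, lay at least 1 below Squamous 7 for 20 of 28 members, against 2.48% of all genes, with a median difference of -1.90. Rptn was 4.21 in Squamous 8 and 8.86 in Squamous 7, Sprr1b 5.24 and 9.41, and Cdsn 5.90 and 9.80. General epithelial genes, from Cdh1 to keratins of simple epithelium, had a median of -0.28 from the Squamous mean in Squamous 8, where the barrier genes stood at -2.32. Cdh1 was 11.30 there, inside the range of the other Squamous tumours. Suprabasal keratins stood at -1.60 in Squamous 8, desmosome genes at -1.35, basal keratinocyte genes at -0.94 and hair follicle genes at -0.75.

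EMT 2 combined high and low members. It was the highest of 17 for 5 members, Ivl, Sprr2d, Sprr3, Lypd3 and Scel, against 8.21% of all genes. The 7 small proline-rich genes had a median of 2.55 above the Squamous mean in EMT 2, against 1.25 in Squamous 9 and 2.10 in Squamous 3. Sprr1a, Sprr1b and Sprr2h were slightly lower in EMT 2 than in Squamous 9, with Sprr1a at 13.67 against 13.94. By contrast Rptn was 3.73 in EMT 2, against 13.37 in Squamous 9, Flg 4.46 against 11.36 and Lor 6.37 against 11.71. Krt1 and Krt10 were 6.37 and 7.16 in EMT 2, against 14.43 and 14.46 in Squamous 9. The suprabasal keratins did not follow Krt1 and Krt10 as a list, which had a median of 0.10 above the Squamous mean in EMT 2. Krt6a (14.10) and Krt17 (12.70) were highest of 17 in EMT 2, and Krt16 was 13.21, against 13.60 in Squamous 9.

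The list of basal keratinocyte genes had its highest median in the same tumour. This median stood 2.26 above the Squamous mean in EMT 2 and 0.016 above it in Squamous 9. Not every gene of the list followed: Krt15 was highest in EMT 1, Itga6 in Squamous 1 and Dst in EMT 6. Krt15 was 7.10 in EMT 2, against 8.41 in Squamous 9. Krt5, a keratin of basal cells, was 13.85 and Trp63, the p63 factor of stratified epithelium, 11.05 in EMT 2, both the highest of 17. EMT 5 had a different split: Sprr2k at 9.15 was the highest of all tumours and Sprr1a was 11.54, while Flg was 3.32, Lypd3 4.28 and Cdh1 8.10.

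The Papillary tumour lay below the Squamous mean for most members. The median of its members from the Squamous mean was -1.31, against 0.00 over all genes, and 18 of 28 were at least 1 lower, against 3.1% of all genes. Below the lowest Squamous tumour lay 2 of 28 members, a share near the 8.26% of all genes. Rptn was 7.85 and Sprr1b 6.80 in the Papillary tumour, against Squamous means of 9.84 ± 2.51 and 9.94 ± 2.30 (SD, n = 9). Calml3 at 10.54 and Asprv1 at 10.82 lay near their Squamous means of 10.67 ± 1.14 and 11.19 ± 1.11 (SD, n = 9). The 12 skeletal muscle genes stood apart in this tumour too, with a median of 3.53 above the Squamous mean and a mean level of 10.02, against 5.00 to 9.36 in Squamous tumours. Their part in the barrier values was not tested, and a single tumour gives no test.

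In the Microacinar tumour most members were low. The median was -2.47 from the Squamous mean, 24 of 28 members were at least 1 lower, against 3.66% of all genes, and 19 lay below the lowest Squamous tumour, against 10%. Crct1 was 4.63, Sprr1b 4.16 and Rptn 3.63, against Squamous means of 10.92 ± 1.53, 9.94 ± 2.30 and 9.84 ± 2.51 (SD, n = 9). Against Squamous 5, which shares its title number, 21 members were at least 1 lower, against 6.29% of all genes. General epithelial genes stood at 0.087 from the Squamous mean and Cdh1 at 11.34, so these markers were at Squamous levels there while the barrier genes were not. Other lists were low too: suprabasal keratins stood at -3.08, hair follicle genes at -3.25, desmosome genes at -1.03 and basal keratinocyte genes at -0.88. Barrier lipid genes and regulators of terminal differentiation stood at 0.028 and -0.033. The skeletal muscle genes had a median of 3.76 above the Squamous mean and a mean level of 10.53, and their part was not tested.

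Other genes of the keratinising programme were also lower in EMT tumours in the median of each list, with 0 called in any of these lists. At an unadjusted p under 0.05 in limma, 6.27% of all genes lay lower in EMT tumours and 8.08% higher. The same shares stand beside the counts of every list below, and the lists were chosen with earlier results known. Of 12 suprabasal keratins 11 lay lower in EMT tumours, 3 of them at an unadjusted p under 0.05, with a median log2 fold change of -1.79 (numbered arrays -0.64). Krt1 and Krt6b stood at -3.04 (SE 1.37) and -2.93 (SE 1.39), and Krt10 at -2.69 (SE 1.19). For 26 other genes of the epidermal differentiation complex the median was -1.28 (numbered arrays -0.51), 13 lower and 2 higher at an unadjusted p under 0.05, led by Tchh (trichohyalin, of hair follicle sheaths) at -3.65 and Hrnr (hornerin, a filaggrin relative) at -2.94. For 15 other proteases and inhibitors the median was -1.07 (numbered arrays -0.44) with 4 lower, led by Klk6 at -2.27 and Slpi, a secreted protease inhibitor, at -1.70.

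Among 23 regulators of terminal differentiation, 7 were lower and 1 higher at an unadjusted p under 0.05, against 6.27% and 8.08% of all genes. Their median was -0.56 (numbered arrays -0.37). Grhl1, a grainyhead factor, and Ehf, an Ets factor of epithelia, had the largest values, -2.31 and -2.26. Grhl1 was 4.65 to 5.24 in EMT 4, EMT 5 and EMT 6 and 9.35 to 10.15 in the other 3 EMT tumours, against 9.38 to 11.08 in Squamous tumours. Grhl1 was 9.41 in Squamous 8, near the lowest Squamous value, and 9.85 in the Microacinar tumour. Barrier genes were low in both tumours, and the regulator list had medians of -0.40 and -0.033 from the Squamous mean there. The 10 desmosome genes had a median of -0.66 with 3 lower, led by Dsc1 at -2.14 and Dsg2 at -2.04, and -0.072 among numbered arrays. The 18 genes of barrier lipid synthesis had a median of -0.27 with 4 lower, led by the fatty acid elongases Elovl4 at -1.57 and Elovl7 at -1.32, and -0.067 among numbered arrays.

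**Figure D4:**
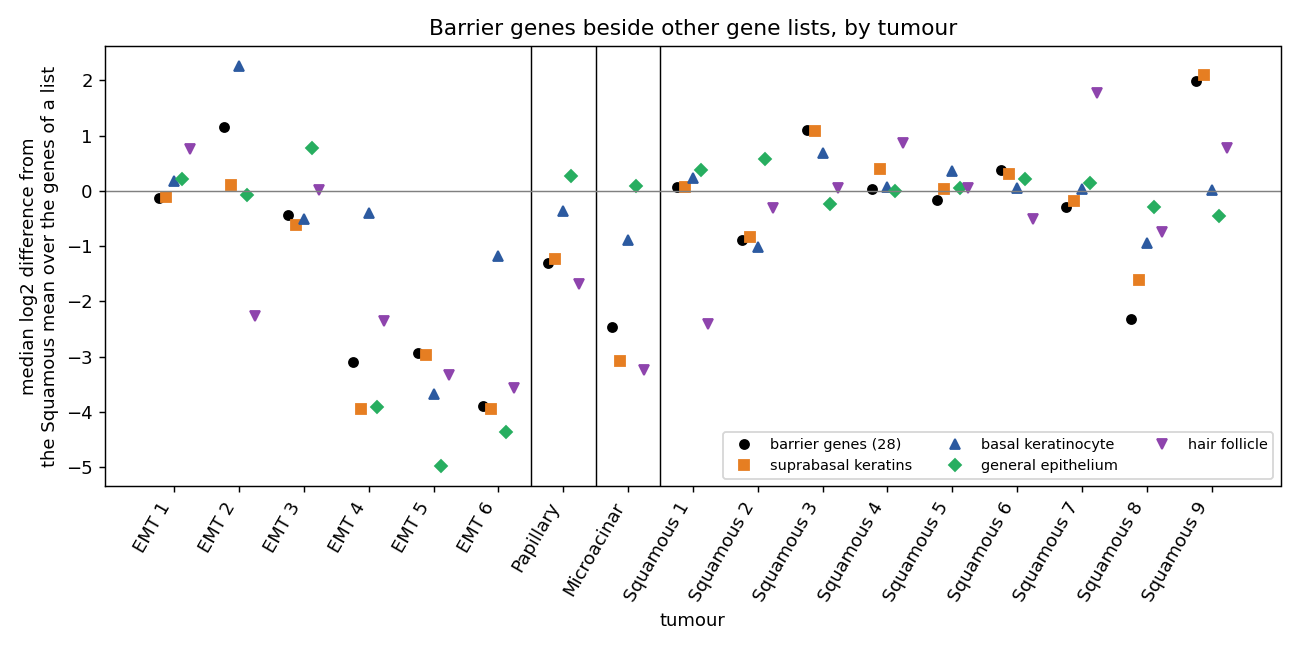
Median log2 difference from the Squamous mean over the genes of a list (vertical axis), by tumour (horizontal axis), for the 28 barrier genes, suprabasal keratins, basal keratinocyte, general epithelial and hair follicle genes. Barrier genes and suprabasal keratins lie close together in most tumours, while in Squamous 8 and the Microacinar tumour the general epithelial genes stay at -0.28 and 0.087 with barrier genes at -2.32 and -2.47.

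Among markers of other cells, some lists differed between the groups and others hardly did, and their part in the result was not tested. The 13 general epithelial genes had a median from the Squamous mean of 0.22 for EMT 1, -0.075 for EMT 2 and 0.77 for EMT 3. It was -3.91 for EMT 4, -4.98 for EMT 5 and -4.36 for EMT 6, the tumours with the lowest barrier genes among the EMT tumours. Their median log2 fold change was -1.50, and -0.87 among numbered arrays. Their summed level, as a mean per gene, was 6.29 to 11.72 in EMT tumours and 10.55 to 11.58 in Squamous tumours. The largest log2 fold changes were -2.50 for Esrp1, an epithelial splicing factor, and -1.75 for Cldn3, a tight junction protein. Of 13 basal keratinocyte genes 7 lay lower and 6 higher in EMT tumours, with a median of -0.098, or 0.21 among numbered arrays, and means of 6.43 to 11.37 in EMT tumours against 8.62 to 10.14 in Squamous tumours. Krt5 and Trp63 stood at -1.75 (SE 1.16) and -1.77 (SE 1.08).

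All 19 hair follicle genes lay lower in EMT tumours (median -1.65, numbered arrays -0.73, 6 at an unadjusted p under 0.05), with means of 5.37 to 9.64 in EMT tumours and 6.52 to 10.34 in Squamous tumours. After Tchh, Krt25, a keratin of the inner root sheath, had the largest value, -3.54. All 12 milk genes lay lower (median -2.41, 11 at an unadjusted p under 0.05), with means of 6.70 to 12.32 in EMT tumours against 11.20 to 13.46 in Squamous tumours, led by Muc15 at -3.41 and Wap at -3.12. All 16 fibroblast and matrix genes lay higher (median 0.60, 0 at an unadjusted p under 0.05), with means of 10.65 to 12.95 in EMT tumours against 8.95 to 12.37 in Squamous tumours. Fbln2 and Fn1 had the largest values, 1.06 and 0.78.

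Of the immune lists, 10 neutrophil genes had a median of -1.31 (5 lower at an unadjusted p under 0.05, led by Lcn2 at -2.69 and Ltf at -2.45) and 11 macrophage genes 0.34 (1 lower, Cd14 at -1.20, with Mrc1 at 0.77). Among numbered arrays the medians were -0.61 for the neutrophil list and -0.042 for the macrophage list, whose direction thus turned. Their means were 6.89 to 8.84 and 9.60 to 12.40 in EMT tumours, against 8.63 to 10.18 and 9.04 to 11.10 in Squamous tumours. The neutrophil list did not move as one. In EMT 2, Lcn2 (9.02) and Ltf (10.39) lay below every Squamous tumour. Csf3r (9.36) and Cxcr2 (6.38), of the same list, lay near their highest values there. Whether the list median follows the number of neutrophils was not tested. Sebocyte (3 genes) and melanocyte (9 genes) lists had medians of -0.21 and -0.074, with means of 4.34 to 5.90 and 5.70 to 7.01 in EMT tumours, against 4.72 to 6.06 and 6.67 to 7.32 in Squamous tumours. Gpnmb at -3.45 and Sox10 at -1.71, of the melanocyte list, and Scd3 at -0.47 and Elovl3 at -0.21, of the sebocyte list, had the largest values. The pigment cell genes Dct, Tyr and Tyrp1 stayed at or below 6.95 in all 17 tumours. Skeletal muscle genes (12) had a median of 0.80, with means of 4.87 to 11.20 in EMT tumours and 5.00 to 9.36 in Squamous tumours, led by Myh1 at 2.02 and Acta1 at 1.45.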

How the data were processed

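RNA of 17 tumours was measured on Affymetrix arrays, 1 per tumour, from 5 ug total RNA made into biotin-labelled cRNA, per the labels' protocols. As deposited, each of 22690 probe sets has one log2 value per array. The scale was read from the values, and the authors' normalization is not given in the sources used here. On all 3 TM arrays 2989 probe sets, none of them used for a member, were exactly equal, which at most 1 was on any 3 numbered arrays, so the TM arrays may have been processed separately. GEO's platform annotation assigned 20380 probe sets to 1 gene, 691 to several and 1555 to none, beside 64 controls. Without further normalization, 12393 genes were kept, each by its probe set of highest mean.

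Groups follow the histology label. The 6 EMT tumours were set against the 9 Squamous tumours in limma 3.58.1 (R 4.3.3), with title format as an additive term and Benjamini-Hochberg adjustment over all genes at 0.05. The p-values measure only the spread between these tumours, which may be technical. The fit was tested on simulated data. Papillary and Microacinar tumours were set against the Squamous mean, and a difference of 1 was counted. Detection calls were not used here, so low values can be background signal, and the number of arrays limits precision. The members, the 16 other gene lists and the tests were chosen with earlier results of these data known. The text names every measured member, at most 2 genes per list with the largest absolute fold change, Cdh1, Krt5, Krt10 and Trp63. Dct, Tyr, Tyrp1, Krt6a, Krt15, Krt16, Krt17, Itga6, Dst, Csf3r and Cxcr2 were chosen after their values were seen. So were the hair keratins in the closing section. Promoters are RefSeq's on GRCm38.p6. Python 3.11.15, pandas 2.3.3, numpy 2.4.6 and matplotlib 3.10.9 were used. The alternatives were no title format term, numbered arrays only, the mean of a gene's probe sets, array medians subtracted, quantile normalization, array weights, genes above the median level only, trended and robust variances, a fit of the 4 histologies together, averaging Squamous 7 with Squamous 8, leaving out each tumour and, added after the data were seen, leaving out genes with equal TM values.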

Additional observations from a re-analysis of the deposited data

Results flagged for a closer look

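For each member, the highest and lowest value of the 6 EMT and of the 9 Squamous tumours were set against the rest of their group by Dixon's test, 56 groups in all. Of these, 11 held a value far from the others. Chance alone flags about 1 in 20 independent groups. The members vary together in the same tumours, so 11 of 56 cannot be set against that rate. EMT 2 stood apart upward for 5 genes: Ivl (8.41), Sprr2d (13.04), Sprr2i (10.45), Sprr3 (7.79) and Alox12b (7.59). Among Squamous tumours, Squamous 9 stood apart upward for Lor (11.71) and Aloxe3 (7.83), and Squamous 3 for Sprr2i (11.59) and Sprr2k (8.67). Squamous 8 stood apart downward for Rptn (4.21) and Klk7 (7.35).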

How the results depend on the processing

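No alternative gave a member an adjusted p under 0.05 in limma. The count of genes called stayed at 0, except for 14 without EMT 1, none of them a member (range 0 to 14 when each tumour was left out). The median of the members, -1.47, ran from -2.03 to -0.51 when each tumour was left out. The value of -0.51 came from leaving out the only Squamous tumour on a TM array, which repeats the numbered arrays. The next highest was -0.87, without EMT 4. Of 298 member values under the 11 other alternatives 293 kept their direction. Among numbered arrays Sprr2k (-0.025), Alox12b (0.26), Evpl (0.059) and Scel (0.041) changed sign, as did Sprr2k with array weights (-0.21). Of 420 values with 1 tumour left out 412 kept their direction. Those that did not belong to Ivl (range -0.22 to 0.70), Sprr3 (-0.090 to 0.53), Sprr2k (-0.24 to 0.26), Alox12b (-1.55 to 0.26), Evpl (-1.38 to 0.059) and Scel (-1.96 to 0.041). For Alox12b, Evpl and Scel the change of sign came only from the fit that repeats the numbered arrays. The 16 members with at least 3 of 6 EMT tumours below every Squamous tumour became 2 on numbered arrays with at least 2 of 4, and ranged from 1 to 24 with 1 tumour left out. The Papillary and Microacinar medians ranged from -1.58 to -1.01 and from -2.70 to -2.21 with 1 Squamous tumour left out. No paired analysis was possible because the replicate numbers were given in accession order and pair no tumours.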

Other observations

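The medians of the hair follicle and barrier lists differed within several tumours. In Squamous 7 the hair follicle list had its highest median, 1.78 above the Squamous mean, with the barrier genes at -0.29, and the hair shaft keratins Krt31 (11.16), Krt33a (12.03), Krt34 (11.37) and Krt86 (11.36) were higher there than in any other tumour. In Squamous 1 the hair follicle median was -2.40 with the barrier genes at 0.070, and Krt25 was 5.70, while Flg was 9.56 and Krt1 12.07. In Squamous 9 both lists were high, at 0.78 and 2.00, and the inner root sheath keratins Krt25 (13.76), Krt27 (12.89) and Krt71 (11.60) had their highest values there. In EMT 2 the hair follicle median was -2.27 with the barrier genes at 1.16. In EMT 1 the order was the reverse, with 0.76 for the hair follicle list and -0.13 for the barrier genes. These genes were chosen after their values were seen, the values are descriptions of single tumours, and no test was made.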
